A study of Mus musculus with 2 samples.

Results

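The heat shock chaperones followed here were 8 genes of the 31053 genes in the deposited tables, chosen by name: Hspa1a and Hspa1b (the stress-inducible HSP70 pair), Hspa8 (constitutive HSP70), Hsp90aa1 and Hsp90ab1 (cytosolic HSP90), Hsph1 (HSP110, a nucleotide exchange factor for HSP70), and Dnaja1 and Dnajb1 (J-domain co-chaperones). All 8 were found in both tables. Their RNA was counted as unique molecular identifiers (UMIs, 1 per captured transcript) in single CD45+ immune cells sorted from mouse lung to over 95% purity, with 1 library per group. The exposed mice had breathed diesel exhaust particles (DEP) in whole-body chambers on 5 days of each week for 2 weeks, 1 hour daily at 500 µg/m³, and the control mice had not. The labels give both libraries as Ccr2-/-, the control CD45.1+ and the exposed CD45.3+, while the series design also names wild-type C57BL/6J mice. Age and the number of animals behind a library were not given in the sources used here. In classical monocytes Ccr2 had 580 counts per 1000000 UMIs (CPM) in the library labelled control and 777 in the library labelled exposed, but 3′ tags can lie outside a deleted stretch, so this does not check the label.

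Heat shock proteins of the HSP70 and HSP90 families hold unfolded or unstable proteins and release them in cycles of ATP hydrolysis. J-domain proteins deliver clients to HSP70 and set off hydrolysis, and HSP110 proteins exchange the nucleotide. The transcription factor HSF1 raises the inducible genes when proteins unfold, in heat, oxidant or toxic stress, and enzymatic digestion of tissue at body temperature is a known way to induce both heat shock genes and immediate early genes. Here the lungs of both groups were digested in 1.5 mg/mL collagenase and 0.1 mg/mL DNase at 37 °C for 30 min. A level common to both libraries could thus come from the lung or from the preparation, and these cannot be told apart. With 1 library per group, a difference between the libraries cannot be told apart from a difference between preparations either.

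The genes lie on 6 mouse chromosomes of build GRCm38, and all are protein-coding. Hspa1a (ENSMUSG00000091971, chr17:34969190-34972156) and Hspa1b (ENSMUSG00000090877, chr17:34956436-34959238) stand on the minus strand, 9951 bases apart. Hspa8 (ENSMUSG00000015656) lies at chr9:40800984-40810087, Hsp90aa1 (ENSMUSG00000021270) at chr12:110690605-110702728 and Hsp90ab1 (ENSMUSG00000023944) at chr17:45567775-45573271. Hsph1 (ENSMUSG00000029657) lies at chr5:149614287-149636376, Dnaja1 (ENSMUSG00000028410) at chr4:40722150-40737149 and Dnajb1 (ENSMUSG00000005483) at chr8:83608193-83612653. The coding sequences of Hspa1a and Hspa1b were 99.4% identical, and 82.3% of the 50-base windows of Hspa1a were shared exactly. Their 3′ untranslated regions were 47.3% identical, with 0 of 761 such windows shared, so 3′ tags can tell the pair apart where they fall there. How reads that match both genes were counted was not given in the sources used here, so the split between the pair is uncertain and their sum is given beside it. Hspa1a overlaps Gm20481 on the other strand, and Dnaja1 overlaps Gm6297 and Smu1.

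The start of the inducible pair is shown because the promoters, like the coding sequences, are near copies. Over the 250 bases before the start site the pair was identical at 247 bases. The 150 bases before each start, from RefSeq on GRCm38.p6, both on the minus strand, are given 5′ to 3′ at chr17:34972157-34972306 for Hspa1a and chr17:34959239-34959388 for Hspa1b. Capitals mark GAANNTTC or TTCNNGAA, facing pairs of the 3-base unit that HSF1 binds in arrays.
Hspa1a: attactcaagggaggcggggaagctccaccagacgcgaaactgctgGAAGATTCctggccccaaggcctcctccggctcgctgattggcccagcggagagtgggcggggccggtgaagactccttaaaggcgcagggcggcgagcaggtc
Hspa1b: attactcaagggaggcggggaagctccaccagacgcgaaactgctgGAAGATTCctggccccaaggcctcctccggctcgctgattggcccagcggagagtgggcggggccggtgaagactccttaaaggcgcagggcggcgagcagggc
The same search found a pair before a RefSeq start of Hsph1 (chr5:149636351-149636380, minus strand) and of Dnaja1 (chr4:40722333-40722362, plus strand). These stretches fall wholly or partly inside the gene spans given above, which begin upstream of those RefSeq starts. The pairs are shown with flanking bases to 30 in all.
Hsph1: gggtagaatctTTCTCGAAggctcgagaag
Dnaja1: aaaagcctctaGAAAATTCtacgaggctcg
Both motifs read the same on either strand. The RefSeq table held 5 of the 8 genes in 9 windows. A match stood before a start of 4 of those 5 genes, with none before Dnajb1, against 14.5% of 27025 genes. Over all windows the share was 12.8% of 32851. The 4 genes include the near-copy pair, and the other Dnaja1 windows held no match. A gene with more windows has more places for a match. A run of 3 alternating units (GAANNTTCNNGAA or TTCNNGAANNTTC) was in 0 of the 9 windows and in 0.466% of all windows. A match is a description of letters, and binding was not measured.

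The control library held 10312 barcodes and 62047730 UMIs and the exposed library 10000 barcodes and 67030914 UMIs. After filters on cells 8940 control cells (median 3672.5 UMIs) and 8690 exposed cells (median 4152) were kept, and 18 of their barcodes occurred in both libraries. Clustering gave 13 cell classes named by their markers with at least 50 cells in each library, and 3 clusters of that size that stayed unnamed. Over all kept cells the markers of epithelial, endothelial and fibroblast cells, 10 each, summed to 30.3 to 152 CPM in the control and 5.68 to 149 CPM in the exposed library. One of the unnamed clusters was led by Foxp3 and Ctla4, genes of regulatory T cells. Because each group was 1 library, no test between groups was possible. Intervals are exact 95% intervals that cover counting error only, and a ratio is called past the fold when the bound nearest to 0 lies beyond 1.5-fold with at least 50 UMIs.

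Over all kept cells the inducible pair was higher in the exposed library and Hsph1 was lower, while the other 5 genes lay within a log2 difference of 0.18. Hspa1a had 107.7 CPM in control and 144.9 in exposed cells (log2 ratio 0.43, interval 0.38 to 0.48). Hspa1b had 134 and 176 CPM (log2 0.39, 0.35 to 0.43). Hsph1 had 38.2 and 24.04 CPM (log2 −0.67, −0.77 to −0.57). So the HSP110 gene and the HSP70 pair, which answer the same factor in textbook heat shock, stood on opposite sides. Hspa8 had 1138 and 1061 CPM, Hsp90aa1 389 and 343, Hsp90ab1 1230 and 1183, Dnaja1 278 and 269.7, and Dnajb1 60.5 and 60.3. None of the 8 was past the fold in this pooled comparison, where 0.52% of 13079 genes were past it upward and 1.14% downward. The median log2 ratio of all these genes was −0.11.

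**Figure D1:**
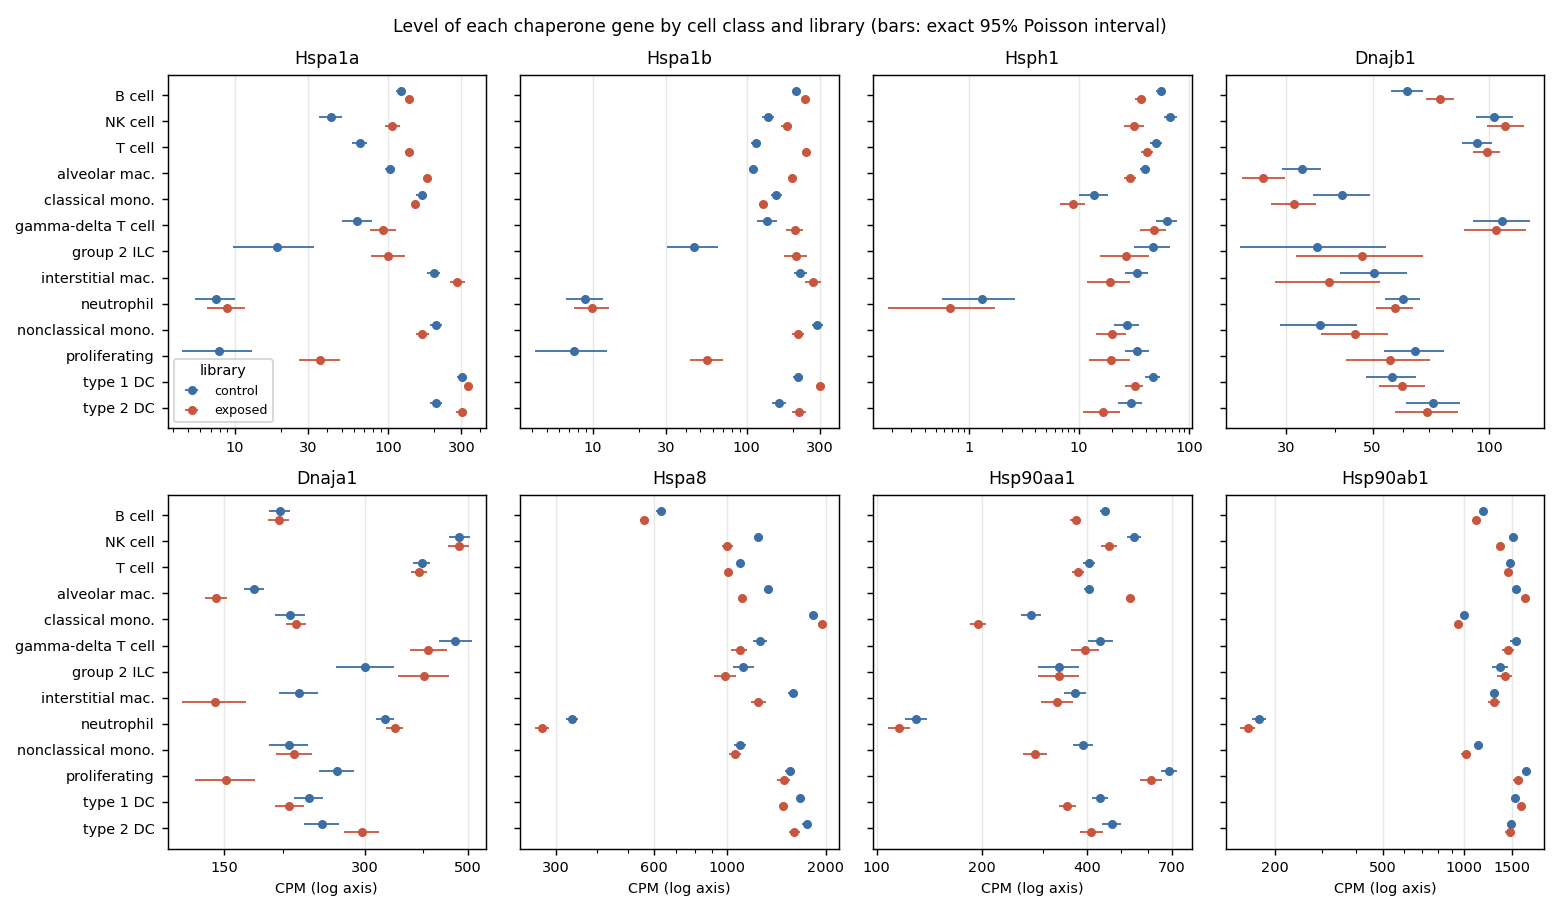
Level of each chaperone gene in CPM (log axis) in 13 cell classes; blue points are the control and red points the exposed library, with exact 95% Poisson intervals. Neutrophils are the lowest class for Hspa8, both HSP90 genes and Hsph1 in both libraries, and Dnaja1 and Dnajb1 are highest in NK or gamma-delta T cells.

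Hspa1a, whose protein is nearly absent from many resting tissues and is induced by stress, was highest in type 1 dendritic cells, at 302 CPM in control and 330 in exposed cells. Neutrophils had 7.58 and 8.89 CPM. Between these lay a 39.8-fold range over the 13 classes in the control and a 37.2-fold range in the exposed library. In the control the next 4 classes after type 1 dendritic cells (type 2 dendritic cells, nonclassical monocytes, interstitial macrophages and classical monocytes, 205 to 166 CPM) had intervals that overlapped from each to the next. Hspa1b, its near copy, was highest in nonclassical monocytes in the control (289 CPM) and in type 1 dendritic cells in the exposed library (302 CPM), and neutrophils had 8.89 and 9.89 CPM. Dendritic cells, monocytes and interstitial macrophages thus stood above the other named classes for Hspa1a in the control. B cells (208 and 239.6 CPM of Hspa1b) were the highest named lymphoid class in the control. For Hspa1b they stood above type 2 dendritic cells (162 CPM) and classical monocytes (156 CPM) there. An unnamed cluster with T cell receptor RNA, described below, had 224 CPM of Hspa1b in the control. Proliferating cells were about as low as neutrophils in the control, with 7.96 CPM of Hspa1a and 7.46 of Hspa1b.

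Over the 104 combinations of gene and named class, 9 were past the fold upward in the exposed library, all of them Hspa1a or Hspa1b, and 1 was past it downward, Hsph1 in NK cells. The background over all genes and named classes was 0.342% upward and 0.85% downward. The intervals take UMIs as independent, but within classes the pair's UMIs were clumped in few cells. The median variance over mean of Hspa1a was 4.79 in control and 5.83 in exposed cells, where independent counts give 1. Intervals of the pair are thus too narrow, and it passes the fold more readily than an evenly spread gene. The background shares here and below are therefore not a like-for-like comparison for the pair. Hspa1a was higher in the exposed library in 11 of 13 classes (median log2 0.55), and Hspa1b in 11 of 13 (median 0.44). A stricter cell filter kept cells with at least 1000 UMIs, 500 genes and at most 5% mitochondrial UMIs. Under it each gene was higher in 9 of 13 classes, and the B cell log2 ratios turned to −0.27 (Hspa1a) and −0.09 (Hspa1b). With the main filter both genes were lower in classical and nonclassical monocytes. In nonclassical monocytes Hspa1b had 289 CPM in control and 215 in exposed cells (log2 −0.43, −0.60 to −0.25).

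**Figure D2:**
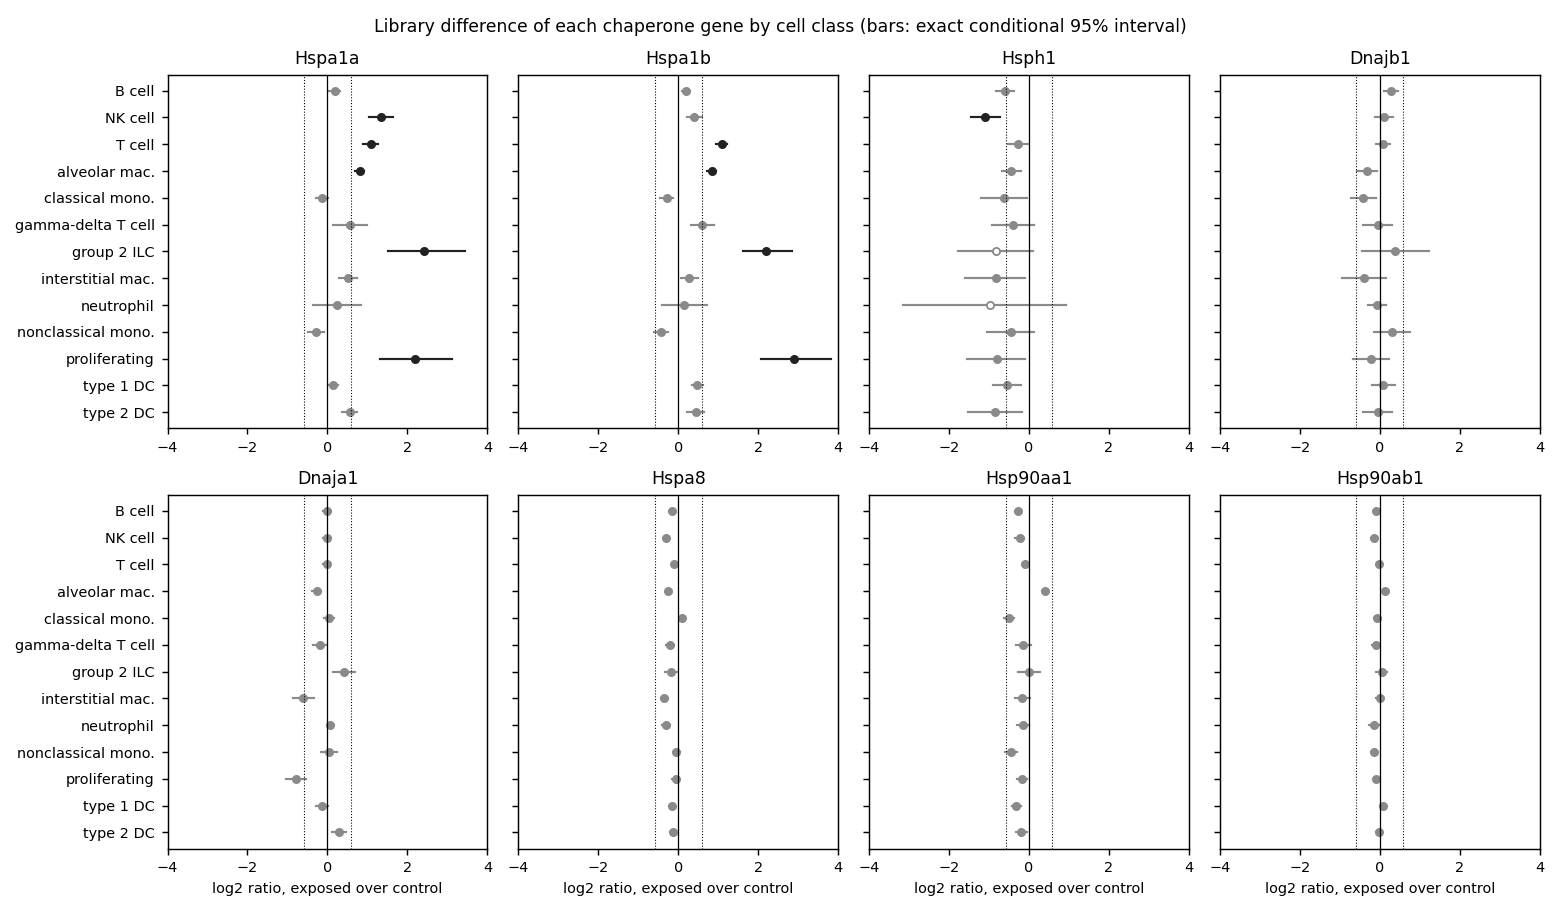
Log2 ratio of exposed over control for each gene in 13 classes with exact conditional 95% intervals; dotted lines mark 1.5-fold, black points lie past it, and open points have under 50 UMIs. The 9 black points on the right are all Hspa1a or Hspa1b, and every Hsph1 point is left of 0.

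The named T cell class had more of both inducible genes in the exposed library. Hspa1a had 65.3 CPM in control and 138 in exposed cells (log2 1.08, 0.90 to 1.26), and Hspa1b had 115 and 244 CPM (log2 1.09, 0.95 to 1.23). These were 2 of 8 genes past the fold upward, with 0.0953% of 8395 genes as background. Both stayed past it under all 12 alternative ways of selecting, grouping or scaling cells, 1 of them chosen after seeing the data, with log2 ratios of 0.76 to 1.92 for Hspa1a and 0.80 to 1.61 for Hspa1b. The other 6 chaperones in T cells had log2 ratios between −0.29 (Hsph1) and 0.09 (Dnajb1).

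More T cells held the RNA in the exposed library. With every cell thinned to 2000 UMIs, an Hspa1a or Hspa1b UMI was found in 9.77% of 921 control cells (7.93% to 11.9%) and in 23.3% of 979 exposed cells (20.7% to 26.1%). Thinning left out 21 control and 10 exposed T cells, and without it the shares were 15.8% and 36.9%, at median depths of 5491.5 and 6069 UMIs. Thinned neutrophils, a class with little of this RNA, gave 2.88% and 2.97% (median depths 2701.5 and 2923). No class is known to lack these genes, so this is a low share measured here, which includes any RNA from other cells, and not a background. The cell with the most held 7.07% of the pair's T cell UMIs in control and 2.91% in exposed cells. In T cells the 13 neutrophil markers summed to 631 CPM in control and 381 in exposed cells, and the 10 B cell markers to 57.5 and 19.1 CPM. Neutrophils themselves had only 16.5 and 18.8 CPM of the pair, so their markers cannot show RNA from classes rich in it. The part of RNA from other cells was not tested.

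T cells were made of a cluster with Cd4 and Lef1 among its 10 leading genes and a cluster led by Cd8b1 and Cd8a. In the Cd4 cluster the summed pair had 112 CPM in control and 380 in exposed cells (log2 1.76, 1.57 to 1.96), and the thinned share was 5.43% and 19.96%. In the Cd8 cluster the values were 234 and 384 CPM (log2 0.71, 0.58 to 0.85), with shares of 14.1% and 27.4%. The exposed levels of the clusters lay side by side while the control levels did not. In the Foxp3 cluster, which stayed unnamed, the pair had 246 CPM in control and 186 in exposed cells (log2 −0.40, −0.66 to −0.15). Its thinned shares were 10.3% and 12.6%. Another unnamed cluster, with Il4 and Cxcr6 among its 10 leading genes, had 357 and 459 CPM (log2 0.36, 0.10 to 0.63). Its thinned shares were 11.8% and 13.6%. A UMI of a Cd3 gene or Trac was found in 98.6% of the Foxp3 cluster's cells and 100% of the other's. The named class thus does not cover all cells with T cell receptor RNA. The difference between these clusters was not tested, since each rests on the same pair of libraries.

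**Figure D3:**
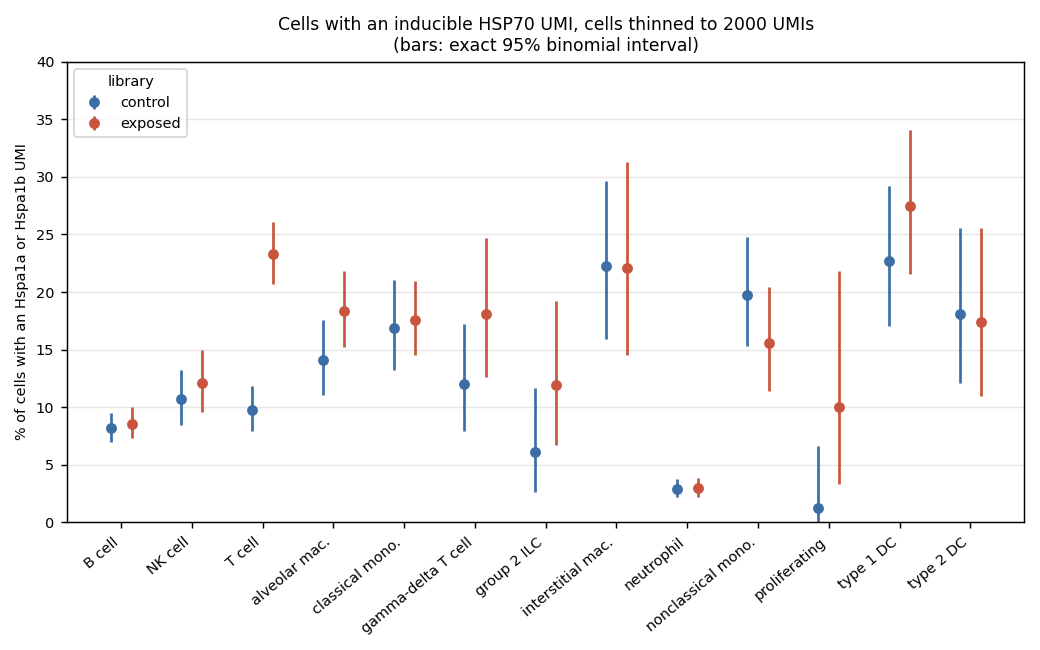
Share of cells with at least 1 Hspa1a or Hspa1b UMI after thinning each cell to 2000 UMIs, by class and library, with exact 95% binomial intervals. The intervals of the T cell points do not overlap (9.77% against 23.3%), and in neutrophils the shares are 2.88% and 2.97%.

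In NK cells Hspa1a had 42.4 CPM in control and 107 in exposed cells (log2 1.33, 1.04 to 1.63), the only gene of the 8 past the fold upward there (background 0.0777%). Hspa1b had 138 and 182 CPM (log2 0.40). One exposed NK cell held 21.4% of the Hspa1a UMIs, and without the highest cell the log2 ratio was 0.99 (0.68 to 1.30). The thinned share of cells with an Hspa1a UMI was 3.81% in control and 6.54% in exposed cells, with overlapping intervals.

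In alveolar macrophages, the resident phagocytes of the airspace, the higher level of the pair rested largely on 1 cell. Hspa1a had 102 CPM in control and 179 in exposed cells (log2 0.81), and Hspa1b had 110.02 and 197 CPM (log2 0.84), against a background of 0.0826% past the fold upward. A single exposed cell with 37788 UMIs held 586 Hspa1a, 554 Hspa1b, 1107 Hsp90aa1, 330 Hspa8 and 90 Hsph1 UMIs, and the 8 genes made up 8.01% of its RNA. Mitochondrial genes gave 0.116% of that cell's UMIs, against 3.41% over exposed alveolar macrophages. Without the highest cell of each library the log2 ratios were 0.28 (0.15 to 0.41) and 0.43 (0.30 to 0.55), no longer past the fold. The next highest cells of the exposed library, a type 2 dendritic cell and an NK cell, held 110 and 68 Hspa1a UMIs.

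The largest ratios stood in the smallest counts. Group 2 innate lymphoid cells had 12 Hspa1a UMIs (18.8 CPM) in the control and 64 (100.5 CPM) in the exposed library, and 29 and 133 Hspa1b UMIs (45.5 and 209 CPM). One exposed cell held 75% of those 64 UMIs, and the log2 ratio of 2.42 was 0.68 (−0.54 to 1.99) without the highest cells and −0.06 with doublets kept. For Hspa1b the log2 ratio of 2.20 was 2.33 without the highest cells and 0.82 with doublets kept. Proliferating cells had 16 and 43 UMIs of Hspa1a (log2 2.18) and 15 and 66 of Hspa1b (log2 2.89) in 82 control and 51 exposed cells. With doublets kept these log2 ratios were 0.19 and 0.47. Of the 66 exposed Hspa1b UMIs 62 were in 1 of the class's 2 clusters, which made up 45 of the control and 37 of the exposed cells. The backgrounds past the fold upward were 0.329% and 0.51%.

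B cells had the pair at 329 CPM in control and 377 in exposed cells, with no gene past the fold (backgrounds 0.099% upward and 0.22% downward). Their larger cluster had 377 and 372 CPM (log2 −0.02) and the smaller 207 and 394 CPM (log2 0.93). The highest single cells held 22.8% and 20.7% of the pair's UMIs in the smaller cluster.

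Hspa8, the constitutive HSP70 that folds newly made proteins and uncoats clathrin vesicles, was highest in classical monocytes (1826 CPM in the control, 1946 in the exposed library) and lowest in neutrophils (336 and 272 CPM). It was lower in the exposed library in 12 of 13 classes (median log2 −0.17), and higher only in classical monocytes (log2 0.09, 0.05 to 0.13), or in 2 classes when centred on the median of all genes. The lowest ratio was in interstitial macrophages, with 1586 and 1245 CPM (log2 −0.35). None of these passed the fold.

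Hsp90aa1, the inducible cytosolic HSP90, was highest in proliferating cells (688 and 612 CPM) and lowest in neutrophils (129 and 116 CPM). It was lower in the exposed library in 11 of 13 classes, and was higher by more than its counting error only in alveolar macrophages, with 406 and 532 CPM (log2 0.39, 0.33 to 0.45). The cell described above held 1107 of the UMIs behind that value, and without the highest cells the log2 ratio was 0.03 (−0.03 to 0.10). Hsp90ab1, the constitutive isoform, had 1692 and 1582 CPM in proliferating cells and 175 and 159 CPM in neutrophils. Its log2 ratios stayed between −0.16 and 0.12 over the 13 classes, 3 higher and 10 lower, which turned to 7 higher and 6 lower when centred on the median of all genes. Neutrophils thus had the lowest HSP90 of both kinds. The next lowest named class, classical monocytes, had 1002 and 951 CPM of Hsp90ab1 and 276 and 195 CPM of Hsp90aa1.

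Hsph1 was lower in the exposed library in all 13 named classes, with a median log2 ratio of −0.64. Outside them, the unnamed cluster with Il4 and Cxcr6 had 117 and 44.3 CPM (log2 −1.40, −2.08 to −0.75), past the fold. NK cells had 67.1 CPM in control and 31.5 in exposed cells (log2 −1.09, −1.46 to −0.74), past the fold with 0.0907% of genes downward in that class. No single NK cell held more than 4.26% of those UMIs, and the thinned share was 11.0% of control and 5.20% of exposed cells. In alveolar macrophages, with 39.3 and 29.0 CPM (log2 −0.44), the cell described above held 33.0% of the exposed UMIs, and without the highest cells the log2 ratio was −1.01 (−1.27 to −0.75), past the fold. B cells had 55.08 and 36.2 CPM (log2 −0.61) and type 1 dendritic cells 46.6 and 31.9 (log2 −0.55). The interval excluded 0 in 9 of the 13 classes, with group 2 innate lymphoid cells, neutrophils, gamma-delta T cells and nonclassical monocytes as the exceptions. Neutrophils had 8 and 4 Hsph1 UMIs, too few for a comparison. The direction held in every class under the alternatives except that 1 class turned under no cell filter, the stricter filter, doublets kept and thinning to 1000 UMIs.

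The J-domain genes had another pattern over the named classes, where NK and gamma-delta T cells were highest for both genes in both libraries. For Dnajb1, T cells came next among the named classes (92.8 and 98.4 CPM), with an interval that overlapped that of the class above. The unnamed cluster with Il4 and Cxcr6 had 536 and 493 CPM of Dnaja1, above NK cells, and 100.4 and 94.6 CPM of Dnajb1. The Foxp3 cluster had 425 and 420 CPM of Dnaja1. Group 2 innate lymphoid cells had 36.1 and 47.1 CPM of Dnajb1. Dnaja1, which carries clients to HSP70 and is farnesylated, had 479 and 478 CPM in NK cells and 174 and 144 CPM in alveolar macrophages. Neutrophils, low in most of the other chaperones, had 331 and 348 CPM of Dnaja1. Dnajb1, the main stress-inducible J-domain partner of HSP70, had 103 and 110 CPM in NK cells and 32.9 and 26.2 CPM in alveolar macrophages. In the exposed library Dnaja1 was higher in 5 and lower in 8 classes and Dnajb1 higher in 6 and lower in 7, with no class past the fold. Centred on the median of all genes in each class, Dnaja1 was higher in 8 and lower in 5 and Dnajb1 higher in 9 and lower in 4, so neither gene had a direction that held under both scalings. The Dnaja1 values farthest from 0 were in proliferating cells (262 and 151 CPM, log2 −0.79, −1.04 to −0.55) and interstitial macrophages (217 and 143 CPM, log2 −0.60, −0.87 to −0.33). The proliferating class joined 2 clusters in unlike mixes. In the first, with 45 control and 37 exposed cells of which 15.9% had a UMI of a Cd3 gene or Trac, parts of the T cell receptor complex, Dnaja1 had 154 and 124 CPM (log2 −0.32, −0.67 to 0.02). In the second, with 37 and 14 cells and 84.3%, it had 424 and 246 CPM (log2 −0.79, −1.19 to −0.40). The part of this mix in the class value was not tested.

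The spread over cells set the inducible pair apart from the other members. Thinned to 2000 UMIs, Hspa1a was found in 5.47% of control and 7.44% of exposed cells, where a Poisson spread of the same mean would give 16.02% and 19.9%. Its variance over mean was 7.70 and 6.60, and that of Hspa1b 9.41 and 7.77. The other 6 genes had 1.43 to 2.44. Among 12 constitutive reference genes, Hprt, with a CPM near that of Hspa1a, had 1.08 and 1.13, and only the far more abundant Eef1a1 and Tpt1 exceeded 4 (4.36 to 5.41). The spread was within classes too: over the named classes the median variance over mean of Hspa1a was 4.79 in control and 5.83 in exposed cells, and neutrophils had 1.12 and 0.99. Single classes stood high for other members too, with 9.82 for Hsp90aa1 in exposed alveolar macrophages, where the cell described above lies, and 8.02 for Dnajb1 in control type 2 dendritic cells. Without thinning, in cells of unequal depth, the 10% of cells with most Hspa1b held 99.7% of its UMIs in control and 96.9% in exposed cells, against 52.0% and 50.9% for Hspa8. So the pair's RNA sat in a minority of cells while Hspa8 RNA was found in most.

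**Figure D4:**
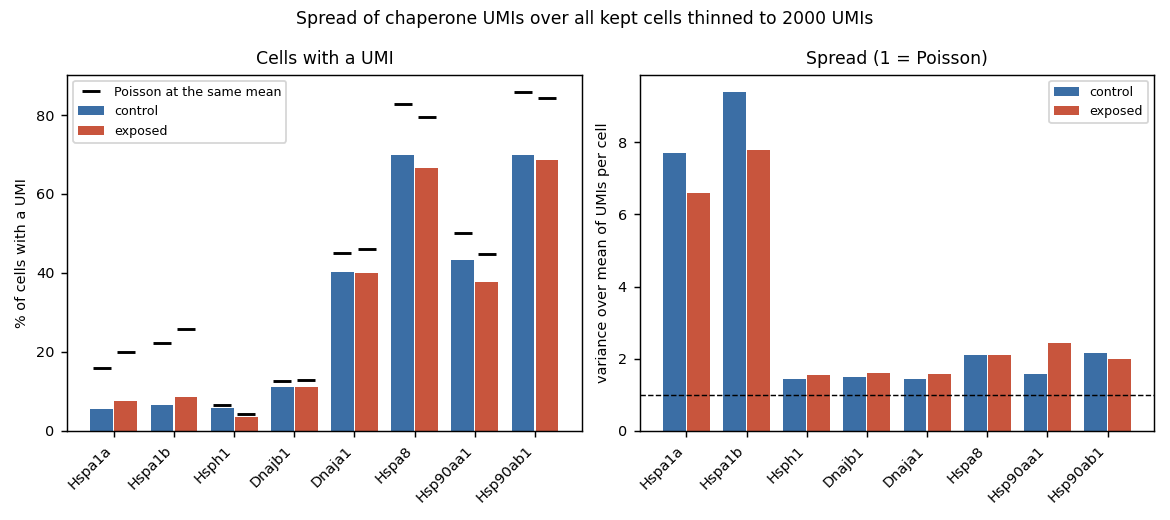
Left, share of kept cells with a UMI of each gene after thinning to 2000 UMIs (bars), with the share a Poisson spread of the same mean gives (black dashes). Right, variance over mean of UMIs per cell, with 1 marked as the Poisson value; the 2 inducible genes stand at 6.60 to 9.41 and the rest at 1.43 to 2.44.

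The same cells carried both genes of the pair. In the thinned control cells 251 held both Hspa1a and Hspa1b where independence would give 30.2, and in the exposed cells 344 where it would give 52.2. Across cells the Pearson correlation of the pair was 0.77 in control and 0.72 in exposed cells. Reads shared between the near-identical coding sequences could add to this, and their part was not tested. Hsph1 was found with Hspa1a 2.87 times as often as under independence in the control and 4.49 times in the exposed library, and Dnajb1 1.88 and 1.98 times. Cells with a UMI of the pair had 8.21 UMIs of the other 6 members in the control against 4.92 in cells without (7.91 and 4.42 in the exposed library), and within T cells 8.44 against 6.78 and 7.72 against 6.35. These counts mix cell classes where not stated and share each cell's depth of 2000 UMIs.

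Immediate early genes, the usual mark of handling, stood beside the pair as follows. The summed level of 31 such genes in T cells was 11182 CPM in control and 10584 in exposed cells, with 7 of 27 counted genes higher and 20 lower (median log2 −0.13, all genes −0.10). In NK cells it was 15435 and 13903 CPM, and in alveolar macrophages 14236 and 13766. The list was lower in the exposed library in these classes, where Hspa1a was higher, in alveolar macrophages largely through 1 cell. Over the 13 named classes the list and the pair lay in the same direction in 7. Both were higher in 5 of these, group 2 innate lymphoid cells (23928 and 25621 CPM of the list), proliferating cells (9446 and 10340 CPM), B cells, interstitial macrophages and type 1 dendritic cells, and both were lower in classical and nonclassical monocytes. Neutrophils had the highest sum of the named classes, 38609 and 37904 CPM, with 16.5 and 18.8 CPM of the pair. Within thinned T cells, cells with a UMI of the pair had 26.8 UMIs of the list in control and 23.07 in exposed cells, against 22.7 and 21.2 in cells without. For Fos and Jun alone the values were 2.23 against 1.30 and 1.69 against 1.27 UMIs. Over the 16 classes and unnamed clusters the pair's sum and the list's sum had a Pearson correlation of −0.25 in control and −0.42 in exposed cells, given as a description of points that share libraries. The part of dissociation in the T cell difference was not tested, and with 1 library per group it cannot be told apart from that of exposure.

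**Figure D5:**
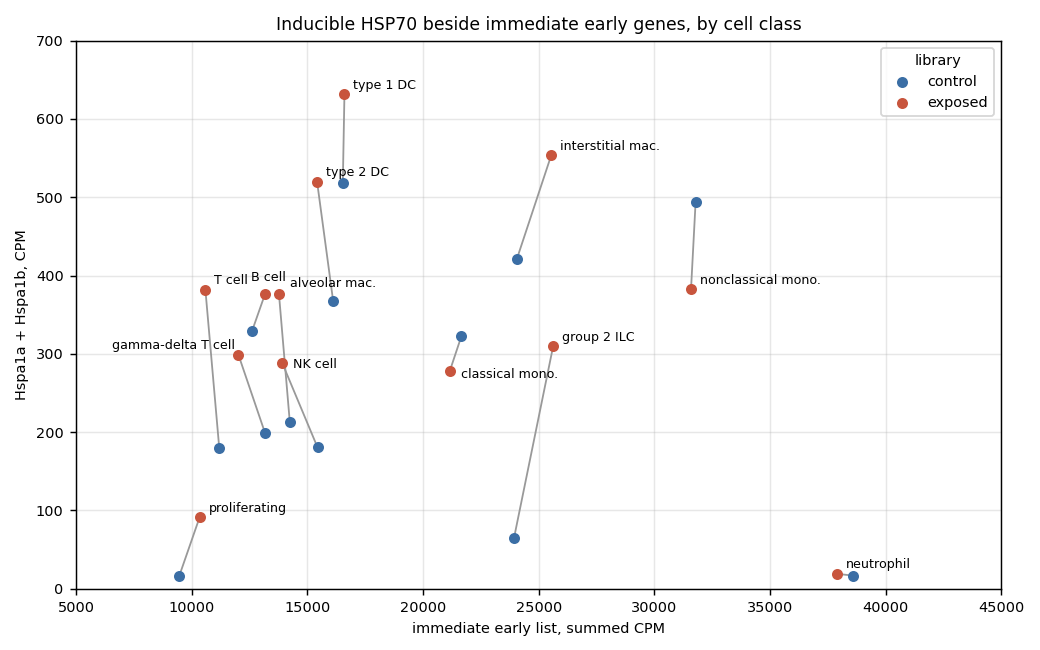
Summed Hspa1a and Hspa1b against the summed immediate early list, both in CPM, for 13 classes; grey lines join the control (blue) and exposed (red) point of a class. The T cell line runs upward from 180 to 382 CPM of the pair while the list goes from 11182 to 10584 CPM.

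Beside the pair in T cells, no list of other chaperone genes with more than 1 counted gene was mostly higher in the exposed library. All genes had a median log2 ratio of −0.10 in T cells, so more of them were lower than higher. The counts alone thus do not set a list apart from all genes. Of 16 counted HSP70 and HSP110 chaperones and co-chaperones, 5 were higher and 11 lower in the exposed library (median log2 −0.17), with 1 past the fold downward, Hspa4l, another HSP110 gene (19.6 and 8.36 CPM, log2 −1.22, −1.73 to −0.73), against a background of 0.322% downward in T cells. Bag3, an HSF1-responsive HSP70 co-chaperone, had 16.05 and 8.20 CPM (log2 −0.97, −1.50 to −0.45). Of 17 HSP90 genes and co-chaperones 8 were higher and 9 lower. Among them Stip1, which bridges HSP70 and HSP90, had 62.5 and 37.5 CPM (log2 −0.74, −0.99 to −0.49). Of 23 other J-domain proteins 9 were higher and 14 lower, and of 15 chaperonin and prefoldin genes 7 were higher and 8 lower, none past the fold. Of 17 endoplasmic reticulum stress genes 3 were higher and 14 lower, among them Hspa5, the HSP70 of that compartment (467 and 387 CPM, log2 −0.27). A further list mixed heat shock factors with other stress genes. Not all of them are induced by HSF1, with Rbm3, Cirbp and Tsc22d3 among the exceptions, so its count does not measure HSF1 targets. Of its 12 counted genes 4 were higher and 8 lower. Ubb, a polyubiquitin gene, was the highest of these by ratio, with 1154 and 1575 CPM (log2 0.45, 0.40 to 0.50). Of 10 genes listed as small heat shock proteins only Hspb11 was counted (30.8 and 36.03 CPM). That gene is listed by its symbol, and its value does not stand for the family. The 12 reference genes had a median log2 of 0.07.

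Stip1 shared the direction of Hsph1 in other classes. In NK cells it had 94.3 CPM in control and 49.9 in exposed cells (log2 −0.92, −1.21 to −0.63), and in B cells 67.1 and 40.2 CPM (log2 −0.74, −0.95 to −0.53). Over all kept cells Stip1 had 57.9 and 36.9 CPM (log2 −0.65).

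Over 32 points (16 classes or clusters in each library) the genes whose level most resembled each member's were ranked among 9169 genes by Pearson correlation of log2(CPM + 10). Hspa1a was most like Hspa1b (0.93), then Casp6 (0.79), and Hspa1b was next like H2-M3 (0.84) and Jun (0.83). Hsp90ab1 was most like Eif4b (0.98), with Ppia, Cct4 and Cct2 at 0.97, and Hsp90aa1 was most like Ddx39b (0.94). Hspa8 was most like Sec61g (0.93), and Hsph1 most like Chordc1 (0.91), an HSP90 co-chaperone. Dnaja1 was most like Rnf125 (0.89) and Dnajb1 most like Plcxd2 (0.86). Among the members, Hsp90aa1 and Hsp90ab1 correlated at 0.91, Hsph1 with both at 0.84 and 0.83, and Dnaja1 with Dnajb1 at 0.70. Dnaja1 with Hspa1a was at −0.31. The points share libraries and related cell types, so these are descriptions.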

How the data were processed

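The deposited tables held raw UMI counts per gene and barcode for called cells, made by the authors with Cell Ranger on mm10, version 3.1.3 per the submitters' processing notes and 3.1.0 per the file headers. No value column was left unmapped (0). Barcodes with at least 500 UMIs, 200 genes and at most 10% mitochondrial UMIs were kept. Doublets were scored against simulated doublets and 751 control and 706 exposed barcodes removed (0.8% per 1000 cells). Cells were log-normalized and clustered without the chaperone and stress genes (2000 variable genes, 30 components, 20 neighbours, Leiden resolution 1, scanpy 1.11.5, leidenalg 0.10.2), with no batch correction. A cluster took a class name with at least 3 markers of that class among its 50 leading genes. A cluster led by Foxp3 that matched group 2 innate lymphoid cells was left unnamed, a rule added after seeing it.

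UMIs were summed per class and library and given as CPM (per 1000000 UMIs), with exact Poisson intervals, exact conditional binomial intervals for ratios and Clopper-Pearson intervals for shares (SciPy 1.17.1). With 1 library per group nothing was tested, so differences can be technical. CPM of 3′ tags do not scale with transcript length. The ratio step was checked on simulated counts. Named genes were the 8 members, from each list the 2 genes with most counts and the 2 with the largest ratio by the nearest bound, and the 5 genes most like each member. The members, lists and markers were chosen with earlier results of these data known. The pair motif was searched after the motif of 3 units gave no match. Alternatives changed filters, doublets, clustering, a per-cell marker gate, centring, cell weights, depth, extreme cells and thresholds. Classes under 50 cells in a library (basophils, mature and plasmacytoid dendritic cells) were not compared.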

Additional observations from a re-analysis of the deposited data

Results flagged for a closer look

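The inducible pair had ratios of opposite sign in different classes. Hspa1a had a log2 ratio of 2.42 in group 2 innate lymphoid cells and −0.29 in nonclassical monocytes. Hspa1b had 2.89 in proliferating cells and −0.43 in nonclassical monocytes. These results were marked because the intervals lay on opposite sides of 0 and at least 1 of them lay past 1.5-fold. The difference between classes was not tested. Hspa8, Hsp90aa1, Hsp90ab1, Dnaja1 and Dnajb1 also had intervals on both sides of 0 in different classes, but none past 1.5-fold. The counts behind the high values of the pair were 64 and 66 UMIs in the exposed library.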

How the results depend on the processing

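Of the results, the 9 gene and class combinations past the fold upward became 5 with doublets kept, 2 with cells thinned to 1000 UMIs, 5 at 2-fold and 5 without the cell highest in the pair (chosen after seeing the data), and stood at 6 to 10 under the other alternatives. Thinning leaves fewer counts, which widens intervals. The 1 combination past it downward became 2 at Leiden resolution 0.6, 2 with the chaperone and stress genes used in clustering, 3 with the marker gate, 4 with each cell weighing the same, 2 without the 1% of cells highest in the members, 2 without the highest cell, 8 by the point estimate, and 0 with thinning or at 2-fold. Hspa1a in group 2 innate lymphoid cells turned to −0.0603 with doublets kept, the 1 value of a called combination to change sign. The cause was not tested. Gamma-delta T cells fell under 50 cells at resolution 0.6 and with the gate, and proliferating cells with the gate, so those have no value there. Counts under 50 and 1 library per group limit every statement. No paired analysis was possible because each group was 1 library and no test was made.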
